A study of Mus musculus with 35 samples.

Results

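Microglia sorted from the forebrain of NesCre Csf1fl/fl mice were compared with microglia sorted from the forebrain of Csf1fl/fl mice, both at postnatal day 8 (P8). The comparison holds 6 of the 35 libraries of the series, 3 per genotype, and they were chosen by their labels alone. In NesCre Csf1fl/fl mice both Csf1 alleles are floxed and Cre recombinase is driven by Nestin, a gene of neural progenitors, so the deletion is expected in neurons, astrocytes and oligodendrocytes. Microglia arise from another lineage and keep the gene in this model, and Il34 is not targeted in either group. The Csf1fl/fl controls carry the same floxed alleles, and their label gives no Cre. Groups of the same genotypes from P8 cerebellum (3 and 3 libraries) and from forebrain at 9 weeks (4 and 3 libraries) serve only for tests of a difference. The labels give no sex, litter or animal, so p-values measure the spread between these libraries. A single control has no replicate number in its label and is called the unnumbered control.

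Microglia, the resident macrophages of the brain tissue itself, need signalling through CSF1R, a receptor tyrosine kinase with the ligands CSF1 and IL-34, to survive and divide. In the forebrain IL-34 comes mainly from neurons, whereas CSF1 is the more prominent ligand of the cerebellum and of white matter. In the early postnatal brain microglia divide, and a population in developing axon tracts expresses Spp1, Igf1, Gpnmb, Clec7a and Itgax, genes that are also part of the program of disease-associated microglia.

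The authors' values are reads per gene divided by a factor per library, called normalised reads here. The table lists 9612 genes, of which 8499 were above 10 normalised reads in all 3 libraries of at least 1 genotype and were kept. Of these, 7398 passed in both genotypes, 422 in NesCre only and 679 in controls only. A gene that passed in 1 genotype only was selected for its high values there, so its direction is partly set by the filter. The libraries held 503424, 1049734 and 833302 reads in table genes for NesCre libraries 1, 2 and 3, and 912135, 1033741 and 974866 for control 1, control 2 and the unnumbered control. The sorted cells carried microglial markers in all 6 libraries. The purinergic receptor P2ry12 had 3038, 3845 and 5825 normalised reads in NesCre libraries 1, 2 and 3, against 5034, 5572 and 4434 in control 1, control 2 and the unnumbered control. Tmem119, a microglial surface protein, had 784, 935 and 1427 in NesCre libraries 1, 2 and 3, against 1079, 1193 and 902 in control 1, control 2 and the unnumbered control. Sall1, the transcription factor that defines microglia among brain macrophages, had 339, 386 and 446 in NesCre libraries 1, 2 and 3, against 425, 410.0 and 442 in control 1, control 2 and the unnumbered control. These markers were high in every library of both genotypes, and their ranges overlapped. Reads of the Y-linked gene Ddx3y were found in all 6 libraries (63.6 to 129 in NesCre, 95.1 to 119 in controls). Ddx3y alone does not tell whether a library also held cells of females, so the sex balance of the groups is not known.

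Variation between the libraries had no single dominant direction. In a principal component analysis of the log2 values, the first component (26.0% of the variance) loaded most strongly on NesCre library 3 (-0.82, against 0.26 and 0.40 for NesCre libraries 1 and 2, and 0.32, -0.07 and -0.08 for control 1, control 2 and the unnumbered control). The second component (23.1%) placed all 3 NesCre libraries (-0.64, -0.27 and -0.11) on the other side of the controls (0.65, 0.24 and 0.12). Pearson's r across genes ran between 0.900 and 0.913 for pairs of NesCre libraries, between 0.927 and 0.942 for pairs of controls, and between 0.899 and 0.923 for pairs of unlike genotype. Genes are not independent replicates, so these r values only describe the libraries. NesCre libraries thus resembled each other no more than they resembled controls. The part of read depth in these r values was not tested. Beside the median log2 change of a gene group, the range of that median with each library left out in turn stands in brackets.

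No gene passed the threshold for a genotype effect in P8 forebrain microglia. With limma on log2(value + 1) and Benjamini-Hochberg adjustment at 0.05, 0 of 8499 genes (0%) were called, and the smallest adjusted p was 0.450. These are bulk libraries of sorted cells, in which fewer cells of a type and less RNA per cell cannot be told apart. Unadjusted p was under 0.05 for 417 genes (4.91%), 210 of them higher in NesCre and 207 lower. All 3 NesCre libraries lay above all 3 controls for 424 genes (4.99%) and below them for 443 (5.21%). The median log2 change over all genes was -0.01, and 48.3% of genes had a positive one. A call was made for 2 genes (0.0235%) without NesCre library 3, Spp1 and Zfp27, and for 1 gene each (0.0118%) without control 1 and without the unnumbered control, Coq4 and Snx20. Zfp27, Coq4 and Snx20 had each passed the filter in 1 genotype only.

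The intervals say how large an effect these libraries leave room for. The 95% interval of the log2 change lay within a 2-fold change in either direction for 5867 of 8499 genes (69.0%). Among the 197 genes with a mean of at least 500 normalised reads it did so for 196, with a median half-width of 0.34. Of these 197 genes, 130 had a negative log2 change. That count was 113 with quantile normalization and 108 without NesCre library 1 or without control 1. For the 15 genes with the highest means, the log2 changes ran between -0.40 for Ctsb and 0.09 for Cx3cr1. They included Csf1r, Sepp1, Ctsd, Actb, Cst3, Apoe, Ctsb, P2ry12, Lgmn, Serinc3, C1qb, Fcrls, Cx3cr1 and Itm2b. The spread was wider over the NesCre libraries: the median SD of the log2 value was 0.32 there and 0.27 over controls. The SD was larger in NesCre for 5021 genes (59.1%). NesCre library 1 held the fewest reads in table genes (503424), and the part of depth in this spread was not tested.

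**Figure D1:**
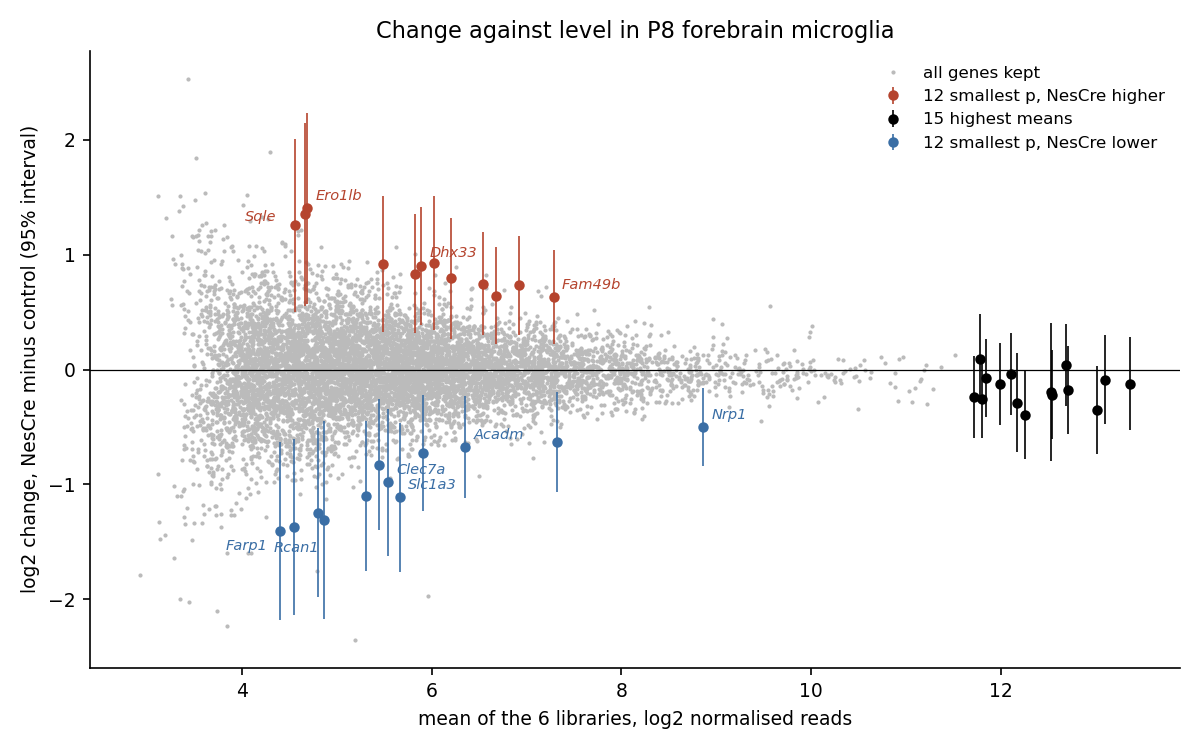
Log2 change (NesCre minus control) of the 8499 genes kept, against the log2 of their mean over the 6 libraries. Coloured points with 95% intervals are the 12 genes of smallest p higher in NesCre (mean of at least 20, no overlap), the 15 genes with the highest means, and the 12 genes of smallest p lower in NesCre. The scatter narrows as the level increases and none of the genes passed the threshold.

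The genes with the smallest p among those that did not overlap between genotypes and had a mean of at least 20 are given as values, since none passed. On the higher side Dhx33, an RNA helicase, had 68.7, 79.1 and 83.7 normalised reads in NesCre libraries 1, 2 and 3, against 40.9, 46.6 and 35.3 in control 1, control 2 and the unnumbered control, a log2 change of 0.90 (95% interval 0.39 to 1.42). Its lowest NesCre library was above its highest control. Sqle, the squalene epoxidase of cholesterol synthesis, had 27.2, 39.2 and 34.1 in NesCre libraries 1, 2 and 3, against 9.60, 14.5 and 16.8 in control 1, control 2 and the unnumbered control. Its log2 change was 1.25 (95% interval 0.50 to 2.01), and the groups did not overlap. Aoah, an enzyme that detoxifies lipopolysaccharide, had 49.6, 36.8 and 24.4 in NesCre libraries 1, 2 and 3, against 8.65, 17.7 and 15.2 in control 1, control 2 and the unnumbered control, a log2 change of 1.35 (95% interval 0.55 to 2.15). Fmr1, which encodes the RNA-binding protein FMRP, had 107, 63.6 and 85.6 in the NesCre libraries and 29.5, 57.9 and 47.8 in the controls, a log2 change of 0.93 (95% interval 0.35 to 1.51). The other genes of this set include Ero1lb, an oxidase of the endoplasmic reticulum (1.41 log2), Sec24b of the COPII vesicle coat (0.83), Exoc5 of the exocyst (0.79) and Ptplb, a dehydratase of fatty acid elongation (0.92). Fam49b, a regulator of RAC1 (0.63), Arrdc3, an arrestin-like protein (0.75), Tmem123 (0.64) and Leng8 (0.73) complete the 12. Of these 12, Sqle, Aoah and Ero1lb passed the filter in NesCre only.

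On the lower side Rcan1, an inhibitor of calcineurin, had 9.68, 13.9 and 13.7 normalised reads in NesCre libraries 1, 2 and 3, against 41.9, 23.4 and 37.8 in control 1, control 2 and the unnumbered control, a log2 change of -1.37 (95% interval -2.14 to -0.60). The NesCre values lay close together and under every control. Nrp1, a co-receptor for VEGF and semaphorins and the most abundant of these 12, had 375, 344 and 433 in NesCre libraries 1, 2 and 3, against 487, 644 and 505 in control 1, control 2 and the unnumbered control, a log2 change of -0.50 (95% interval -0.84 to -0.16). The mitochondrial fatty acid oxidation enzymes Acadm and Decr1 had log2 changes of -0.68 (95% interval -1.12 to -0.23) and -1.25 (95% interval -1.98 to -0.51). Acadm had 62.4, 57.9 and 68.1 in the NesCre libraries and 103, 106 and 93.9 in the controls. Both stood apart from the controls in every library. Clec7a and Ccl6, described with the axon-tract and chemokine genes below, and Slc1a3, a glutamate transporter best known from astrocytes (-1.11), are also in this set. Farp1, a guanine nucleotide exchange factor (-1.41), Fkbp9, a prolyl isomerase of the endoplasmic reticulum (-1.10), Pkd2, a cation channel (-1.31), Usp12, a deubiquitinase (-0.83), and Clstn1 (-0.73) are the rest. Of these 12, Rcan1, Farp1 and Pkd2 passed the filter in controls only.

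The ligand, the receptor and the pathway of CSF1R were measured first among the gene groups. Csf1r itself had 7204, 8745 and 9588 normalised reads in NesCre libraries 1, 2 and 3, against 9229.7, 9576 and 8230.4 in control 1, control 2 and the unnumbered control. Its log2 change was -0.09 (95% interval -0.48 to 0.30), and the groups overlapped. Csf1 in the sorted cells had 25.6, 42.5 and 13.7 in NesCre libraries 1, 2 and 3, against 27.6, 26.6 and 42.0 in control 1, control 2 and the unnumbered control, a log2 change of -0.33 (95% interval -1.13 to 0.47). Because the Cre is not active in microglia, these reads do not check the deletion. Il34 was not analysed here. Of 35 genes listed for CSF1R signalling and the transcription factors of microglia, 28 were kept. None was called, 19 had a positive log2 change, and the median was 0.06 (0.02 to 0.15), against -0.01 over all genes. The transcription factor Spi1 (PU.1) had 87.9, 172 and 89.5 in NesCre libraries 1, 2 and 3, against 65.6, 89.9 and 103 in control 1, control 2 and the unnumbered control, a log2 change of 0.38 (95% interval -0.15 to 0.91). A single NesCre library was high, and the groups overlapped. Irf8, Runx1, Mef2a and Mef2c, all macrophage transcription factors, had log2 changes of 0.11, 0.06, 0.06 and -0.04. Among the signalling proteins, the adaptor Grb2 lay below the controls in all 3 NesCre libraries (-0.51) and the phosphatase Ptpn6 above them (0.18). Each was 3.57% of the 28, against 5.21% and 4.99% of all genes. The interval lay within a 2-fold change either way for 25 of the 28.

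Genes of division and survival are of interest because CSF1R signalling drives both in microglia. Of the 50 cell cycle genes, 49 were kept and none was called, while 37 had a positive log2 change (75.5%, against 48.3% of all genes). With each library left out in turn, that count ran from 29 without NesCre library 1 to 41 without NesCre library 3. The median was 0.13 (0.06 to 0.24), and it stayed within these bounds under the other alternatives tried. Mki67, the proliferation antigen, had 257, 265 and 219.8 normalised reads in NesCre libraries 1, 2 and 3, against 191, 244 and 232 in control 1, control 2 and the unnumbered control, a log2 change of 0.16 (95% interval -0.20 to 0.51). Top2a, a topoisomerase of dividing cells, had 315, 378 and 318 in NesCre libraries 1, 2 and 3, against 259, 374 and 249 in control 1, control 2 and the unnumbered control, a log2 change of 0.22 (95% interval -0.16 to 0.59). Both genes overlapped between genotypes. The mitotic kinase Plk1, Cdca8 of the chromosomal passenger complex and the cyclin Ccne2 lay above all controls (0.39, 0.48 and 0.38), and the cyclin Ccne1 lay below them (-0.90). These were 6.12% and 2.04% of the 49, against 4.99% and 5.21% of all genes. The summed level of the list was 6363, 6414 and 5066 in NesCre libraries 1, 2 and 3 and 5259, 5859.6 and 5383 in control 1, control 2 and the unnumbered control. NesCre library 3 was the lowest of the 6 and the other NesCre libraries the highest. Of 31 survival and apoptosis genes 26 were kept and 9 had a positive log2 change, with a median of -0.14 (-0.17 to -0.04), least negative without NesCre library 1. The anti-apoptotic genes Mcl1 and Bcl2l1 had log2 changes of 0.17 and -0.16. The p53 target Pmaip1 (-0.72) and Diablo, an antagonist of caspase inhibitors (-0.53), lay below all controls, and Casp9 (0.40) and Birc2 (0.48) above them. That was 7.69% of the 26 in each direction, against 5.21% and 4.99% of all genes.

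Homeostatic microglial genes were kept at 34 of 35 listed. None was called, 8 had a positive log2 change and the median was -0.10 (-0.22 to 0.03). That median was 0.03 without NesCre library 1, the shallowest library, and -0.22 without NesCre library 3, so its sign rests on a single library. With quantile normalization it was -0.05. Of the 34 kept, 3 lay below all controls (8.82%, against 5.21% of all genes) and 1 above them (2.94%, against 4.99%). Among those below, Serpine2, a secreted serine protease inhibitor, had 544, 595 and 665 normalised reads in NesCre libraries 1, 2 and 3, against 871, 846 and 742 in control 1, control 2 and the unnumbered control. Its log2 change was -0.45 (95% interval -0.77 to -0.13), and all NesCre values were under all controls. Crybb1, a crystallin that marks embryonic and neonatal microglia, was likewise apart, with 105, 142 and 138 in the NesCre libraries and 204, 162 and 169 in the controls and a log2 change of -0.48 (95% interval -0.87 to -0.08). Fcrls, an Fc-receptor-like scavenger receptor, had 3177, 3489 and 3083 in NesCre libraries 1, 2 and 3, against 4160.5, 3824 and 3668 in control 1, control 2 and the unnumbered control, a log2 change of -0.26 (95% interval -0.59 to 0.08). The fractalkine receptor Cx3cr1 and the lectin Siglech overlapped between genotypes (0.09 and -0.11). For P2ry12, Selplg, Sparc and Gpr56, NesCre library 3 was the highest of all 6 libraries and NesCre library 1 the lowest. Selplg, the ligand of P-selectin, had 603, 921 and 1433 in the NesCre libraries and 855, 896 and 736 in the controls. These genes differed more among mutants than between genotypes.

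**Figure D2:**
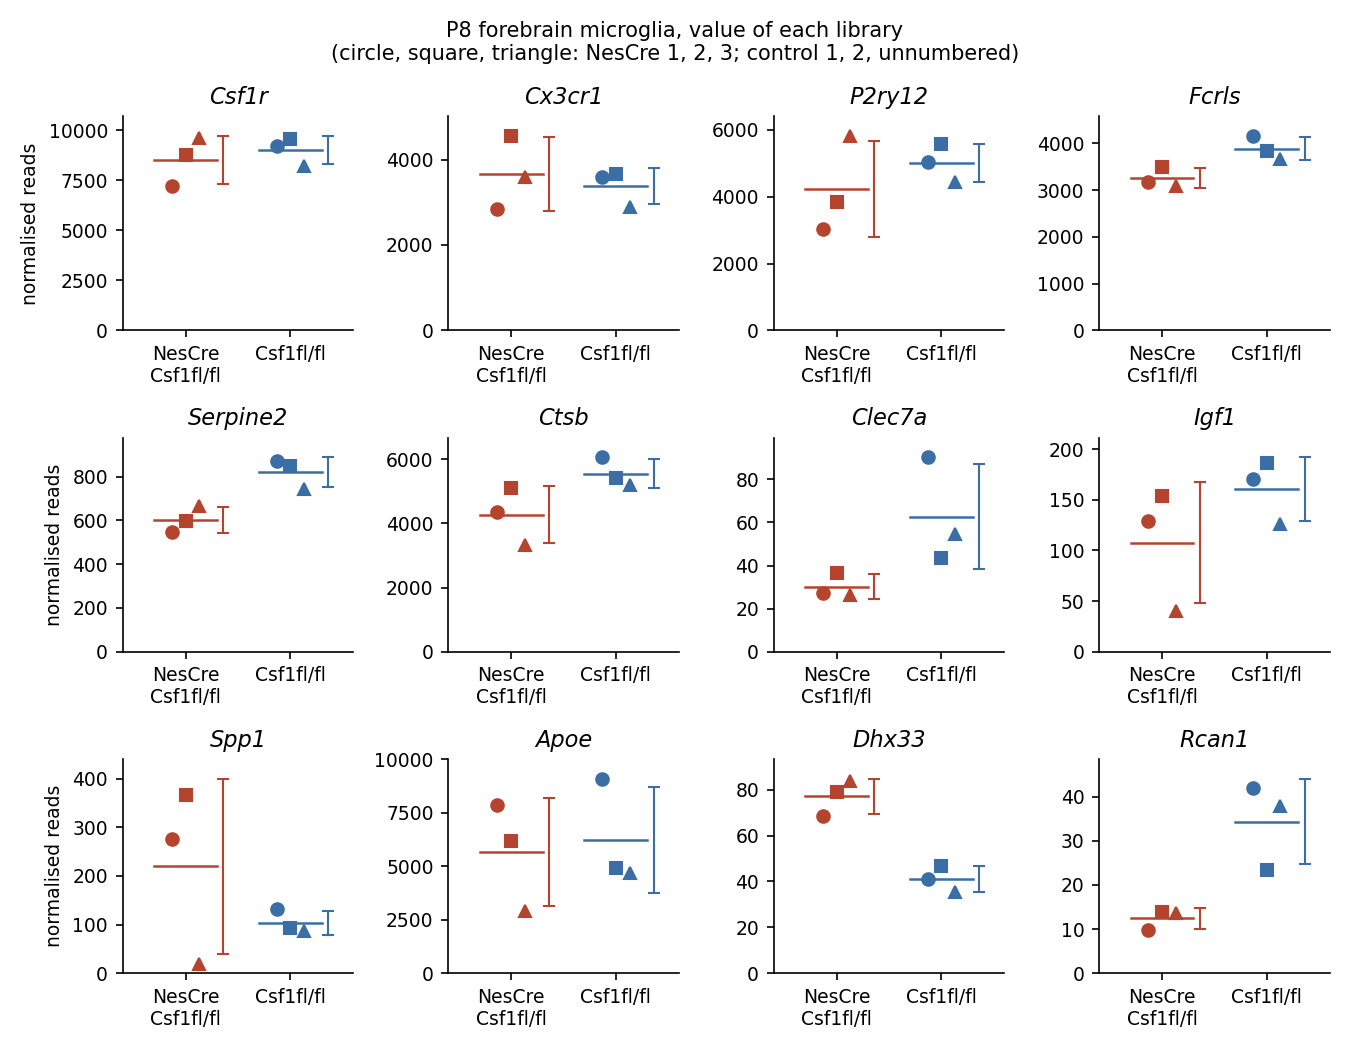
Normalised reads of 12 genes in each P8 forebrain library, NesCre Csf1fl/fl left and Csf1fl/fl right. Horizontal lines are means and vertical bars SDs (n = 3 each). Serpine2, Ctsb, Fcrls, Clec7a, Dhx33 and Rcan1 do not overlap between genotypes, whereas Spp1, Igf1 and Apoe are lowest in NesCre library 3.

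Genes of axon-tract and disease-associated microglia were the group with the most negative median among the microglial programs. Of 33 listed, 28 were kept, 7 had a positive log2 change, none was called and the median was -0.22 (-0.33 to -0.08). It was -0.08 without NesCre library 3 and -0.11 without control 1. The mean log2 deviation of the 28 genes from the mean of the 6 libraries was 0.04, 0.23 and -0.60 in NesCre libraries 1, 2 and 3 and 0.40, -0.03 and -0.04 in control 1, control 2 and the unnumbered control. NesCre library 3 was the lowest and control 1 the highest, with the other libraries between them. Clec7a (GRCm38 chromosome 6, 129461591 to 129472779), the beta-glucan receptor Dectin-1, had 27.2, 36.8 and 26.3 normalised reads in NesCre libraries 1, 2 and 3, against 90.3, 43.4 and 54.5 in control 1, control 2 and the unnumbered control. Its log2 change was -0.98 (95% interval -1.62 to -0.34) and the groups did not overlap. Ctsb, the lysosomal protease cathepsin B, averaged 4259 ± 888 normalised reads in NesCre libraries and 5545 ± 458 in controls (SD, n = 3 each), a log2 change of -0.40 (95% interval -0.78 to -0.02). It too lay below all controls, which 2 of the 28 did (7.14%, against 5.21% of all genes), and none lay above them. Igf1, the growth factor that tract microglia supply, had 129, 153 and 40.0 in NesCre libraries 1, 2 and 3, against 170.1, 186 and 126 in control 1, control 2 and the unnumbered control, a log2 change of -0.77 (95% interval -1.46 to -0.07). The lowest value by far was that of NesCre library 3, and the other NesCre values were inside the control range. The chemokine Ccl3 had -0.60, the lipoprotein lipase gene Lpl -0.29, and the receptor pair Trem2 and Tyrobp -0.23 and -0.22.

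Spp1 (GRCm38 chromosome 5, 104435118 to 104441050), the secreted phosphoprotein osteopontin, set the NesCre libraries against each other. It had 276, 366 and 18.6 normalised reads in NesCre libraries 1, 2 and 3, against 132, 93.2 and 86.3 in control 1, control 2 and the unnumbered control. NesCre libraries 1 and 2 were above every control and NesCre library 3 was below every control. The log2 change was 0.29 (95% interval -1.03 to 1.61), and without NesCre library 3 it was 1.63 (adjusted p = 0.0072, limma). Gpnmb, a membrane glycoprotein of the same program, had 67.1, 107 and 1.07 in NesCre libraries 1, 2 and 3, against 3.90, 14.5 and 30.2 in control 1, control 2 and the unnumbered control. Lgals3, galectin 3, had 17.7, 46.5 and 3.99 in NesCre libraries 1, 2 and 3, against 8.65, 7.32 and 16.0 in control 1, control 2 and the unnumbered control. Both were highest in NesCre libraries 1 and 2 and lowest in NesCre library 3, and neither passed the filter. Apoe, the apolipoprotein, had 7846, 6195 and 2893 in NesCre libraries 1, 2 and 3, against 9092, 4924 and 4685 in control 1, control 2 and the unnumbered control, with NesCre library 3 lowest and control 1 highest. The lipid droplet protein Plin2 had 169, 196 and 78.8 in the NesCre libraries and 203, 111 and 133 in the controls. The low end of this program in NesCre library 3 came with the lowest endothelial and border macrophage sums among the 6 libraries, given below. Their part in these values was not tested.

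The starts of Spp1, which set the mutants against each other, and of Clec7a, which did not overlap between genotypes, are shown for the binding motifs of the factors measured in the same libraries. Each window, from RefSeq on GRCm38.p6, holds the 250 bases before and the 50 after a start, and is written 5′ to 3′ on the strand of the gene: chr5:104434861-104435160 (+) and chr6:129472730-129473029 (-). Capitals mark matches, on either strand, to GAGGAAGT, the core bound by PU.1 (Spi1). TGANTCA, the AP-1 site bound by FOS and JUN proteins, was searched in the same way, and the motifs do not overlap each other.
Spp1: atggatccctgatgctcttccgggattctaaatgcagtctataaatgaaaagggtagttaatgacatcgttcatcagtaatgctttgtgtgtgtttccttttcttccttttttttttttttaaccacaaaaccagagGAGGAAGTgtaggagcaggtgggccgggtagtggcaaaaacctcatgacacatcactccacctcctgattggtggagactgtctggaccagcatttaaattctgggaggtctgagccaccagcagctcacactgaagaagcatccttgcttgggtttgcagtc
Clec7a: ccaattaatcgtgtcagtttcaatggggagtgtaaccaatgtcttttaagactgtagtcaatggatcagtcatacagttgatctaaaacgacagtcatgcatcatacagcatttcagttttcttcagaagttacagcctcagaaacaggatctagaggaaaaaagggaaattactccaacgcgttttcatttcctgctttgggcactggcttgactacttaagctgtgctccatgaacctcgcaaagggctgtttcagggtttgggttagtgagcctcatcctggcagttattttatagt

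The Spp1 window held 1 match to the PU.1 core and none to the AP-1 site, and the Clec7a window held neither. Over all 32851 promoter windows of the table, 3.20% held the PU.1 core and 7.81% the AP-1 site. A match describes letters in a window and no bound site. Spi1 expression is given above, and Fos, a subunit of AP-1, had 70.3, 108 and 101 normalised reads in NesCre libraries 1, 2 and 3, against 130.2, 149 and 113 in control 1, control 2 and the unnumbered control, a log2 change of -0.50 (95% interval -0.94 to -0.05).

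Lysosomal genes were kept at 38 of 39. None was called, 12 had a positive log2 change and the median was -0.10 (-0.17 to -0.04), or -0.06 with quantile normalization. Abundant genes leaned lower as a whole: 130 of the 197 genes with a mean of at least 500 had a negative log2 change. The part of expression level in the lysosomal values was not tested. Of the 38, 2 lay above all controls and 5 below (5.26% and 13.2%, against 4.99% and 5.21% of all genes). Below were Ctsb, Ctsa, the peptidase Tpp1 (-0.33), the acid lipase Lipa (-0.32) and progranulin, Grn (-0.17). Ctsa, the protective protein cathepsin A, had 951, 1137 and 852 normalised reads in NesCre libraries 1, 2 and 3, against 1243, 1152 and 1150.3 in control 1, control 2 and the unnumbered control. Above were the cysteine proteases Ctsh and Ctsc. Ctsh had 295, 394 and 395 in NesCre libraries 1, 2 and 3, against 294, 262 and 267 in control 1, control 2 and the unnumbered control, a log2 change of 0.39 (95% interval 0.04 to 0.73). Ctss, the cathepsin of antigen processing, was among the largest positive differences of means (296 normalised reads), yet the groups overlapped (0.13). C1qc, Cx3cr1, the lipase Abhd12 and the cytoskeletal linker Epb4.1l2 were the other genes with the largest positive ones. The largest negative differences of means were those of Sepp1, a selenium carrier (-2062), and Ctsb (-1285). Sepp1 had 7576, 7547 and 6653 in NesCre libraries 1, 2 and 3, against 11079.6, 8485 and 8396 in control 1, control 2 and the unnumbered control, a log2 change of -0.35 (95% interval -0.74 to 0.03), without overlap. Phagocytic receptors had a median of -0.03 (-0.09 to 0.10) over 26 of 30 genes kept. Cd300a, an inhibitory receptor for phospholipids (-0.42), was the member below all controls (3.85% of the 26, against 5.21% of all genes). Complement genes had a median of -0.07 (-0.11 to 0.01) over 13 of 19. C1qc had 879.7, 1954 and 792 in NesCre libraries 1, 2 and 3, against 856, 789 and 910.0 in control 1, control 2 and the unnumbered control, its high value in NesCre library 2 alone, whereas C1qa and C1qb, the other subunits of C1q, had log2 changes of -0.07 and -0.08.

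Inflammatory programs were also without a call. Among cytokines and their regulators 24 of 30 were kept, with a median of 0.03 (-0.10 to 0.07), lowest without NesCre library 3. Within that list the C-C chemokines Ccl6 and Ccl9 were low. Ccl6 had 137, 117 and 114 normalised reads in NesCre libraries 1, 2 and 3, against 265, 146 and 178 in control 1, control 2 and the unnumbered control, a log2 change of -0.63 (95% interval -1.07 to -0.20), with every NesCre value under every control. Ccl9 had 92.7, 67.7 and 103 in the NesCre libraries and 186, 138 and 98.9 in the controls, a log2 change of -0.65 (95% interval -1.14 to -0.16), with overlap. The inflammasome sensor Nlrp3 (0.76) and the NF-kB subunit Rel (0.64) lay above all controls, and Nfkb1 (-0.35) and Il18 (-0.33) below them. With Ccl6, these were 8.33% of the 24 above and 12.5% below, against 4.99% and 5.21% of all genes. Interferon-stimulated genes had a median of 0.07 (0.01 to 0.12) over 19 of 33. Ddx58, the RNA sensor RIG-I (-0.75), was 1 of 2 members below all controls (10.5%, against 5.21% of all genes), and none lay above them. Antigen presentation genes had a median of -0.01 (-0.14 to 0.11) over 14 of 24. Among them the class II genes H2-Aa, H2-Ab1 and H2-Eb1 did not pass the filter and were high in a single library. H2-Aa had 3.29, 2.54 and 0.1 in the NesCre libraries and 3.90, 0.1 and 59.5 in the controls, the last of these being the unnumbered control. Immediate early genes, which respond to stimulation and to tissue handling, had a median of -0.16 (-0.27 to -0.06) over 17 of 28. A positive log2 change was found for 3 of the 17 (17.6%, against 48.3% of all genes), and for 7 without NesCre library 1 or without NesCre library 3. Fos, Klf4 (-0.86) and Btg1 (-0.30) lay below all controls and Ier3 (0.21) above them (17.6% and 5.88% of the 17, against 5.21% and 4.99% of all genes). Heat shock genes had a median of -0.12 (-0.22 to -0.09) over 12 of 14.

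Metabolic and structural groups had medians between -0.12 and 0.16, and none held a call. Oxidative phosphorylation had a median of -0.04 (-0.15 to 0.09) over 57 of 60 genes, glycolysis and hypoxia -0.12 (-0.17 to -0.02) over 19 of 28, nearest 0 without control 1, lipid efflux -0.12 (-0.22 to -0.01) over 17 of 22, and motility and cytoskeleton 0.02 (-0.04 to 0.07) over 35 of 36. Cholesterol synthesis had 0.01 (-0.12 to 0.11) over 17 of 24, its sign turning without NesCre library 2 or 3, control 2 or the unnumbered control, with Sqle its highest member. TGF-beta signalling, which maintains microglial identity, had 0.16 (-0.01 to 0.22) over 17 of 21. That median was 0.01 without NesCre library 3 and -0.01 without control 2, so it rests on single libraries. Its members Itgb1, an integrin subunit (0.33), the co-repressor Ski (0.36) and Smad7 (0.50) lay above all controls (17.6% of the 17, against 4.99% of all genes). DNA break repair had -0.01 (-0.11 to 0.06) over 24 of 26, and 2 of the 24 lay above all controls (8.33%, against 4.99% of all genes). Polq, the polymerase of microhomology-mediated end joining, had 35.2, 36.8 and 18.6 normalised reads in NesCre libraries 1, 2 and 3, against 2.00, 14.5 and 10.1 in control 1, control 2 and the unnumbered control, a log2 change of 1.90 (95% interval 0.84 to 2.96), without overlap. Coq4 of ubiquinone synthesis had 19.3, 17.2 and 17.6 in NesCre libraries 1, 2 and 3, against 8.65, 0.902 and 0.937 in control 1, control 2 and the unnumbered control, a log2 change of 2.53 (95% interval 1.41 to 3.65), and was called without control 1. It is measured with few reads, and 2 of its 3 control values stand for a single read. Polq and Coq4 both passed the filter in NesCre only. Ribosomal protein genes had a median of -0.01 (-0.17 to 0.23) over 77, of which 37 were positive. Without NesCre library 3, 70 were positive, and without NesCre library 2, 12 were. Their summed level varied as much within as between genotypes, at 28109, 33773 and 20396 in NesCre libraries 1, 2 and 3 and 32129.5, 23337 and 26870.1 in control 1, control 2 and the unnumbered control.

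**Figure D3:**
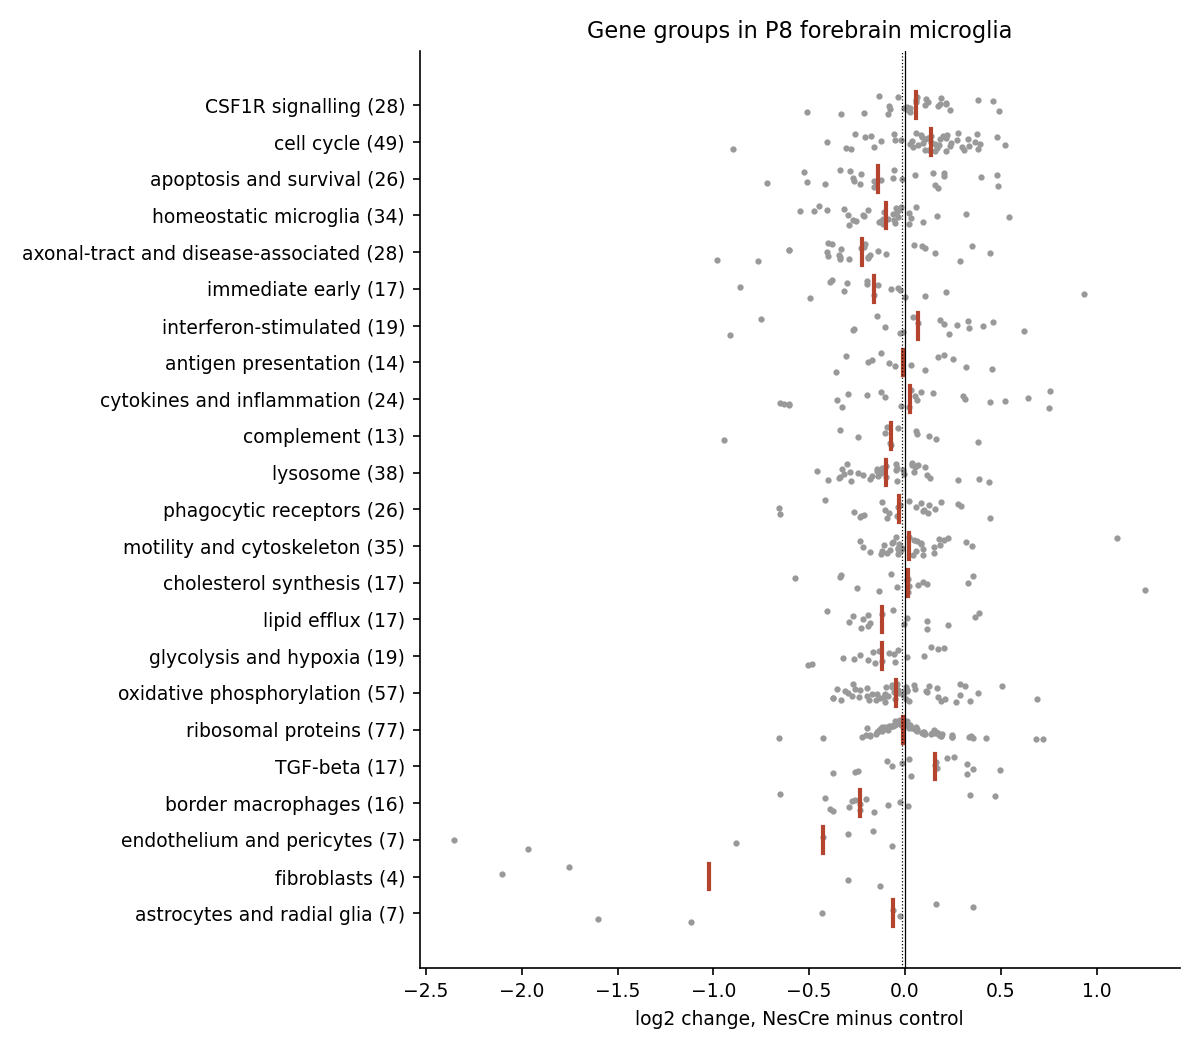
Log2 change (NesCre minus control) of each kept member of 23 gene groups (grey points, number in brackets) with the group's median (red bar). The dotted line is the median of all 8499 genes. Microglial programs have medians between -0.22 (axonal-tract and disease-associated, -0.08 without NesCre library 3) and 0.16 (TGF-beta, -0.01 without control 2). Among the groups shown, the most negative medians are those of fibroblast and endothelial markers, some of which passed the filter in controls only.

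Several markers of other cells had lower values in NesCre libraries. Of 26 endothelial and pericyte markers 15 were in the table and 7 were kept. All 7 were lower in NesCre by mean log2 value. Among them Cldn5 and Itm2a passed the filter in controls only, so their direction is partly set by the filter. Their median was -0.43 (-0.85 to -0.22), and -0.22 without control 1. The summed level of the 15 was 643, 521 and 396 in NesCre libraries 1, 2 and 3 and 1108, 687 and 565 in control 1, control 2 and the unnumbered control, so control 1 was the highest and NesCre library 3 the lowest. Cldn5, the tight junction protein of brain endothelium, had 64.0, 43.3 and 2.04 normalised reads in NesCre libraries 1, 2 and 3, against 148, 56.3 and 60.4 in control 1, control 2 and the unnumbered control. Itm2a, a vascular membrane protein, had 35.2, 17.2 and 0.1 in NesCre libraries 1, 2 and 3, against 106, 40.2 and 21.0 in control 1, control 2 and the unnumbered control, where 0.1 stands for 0 reads. NesCre library 3 was nearly free of both. Of 19 fibroblast markers 9 were in the table and 4 were kept, all with a negative log2 change and a median of -1.03 (-1.39 to -0.79). Fn1 and Cnn3 among them passed the filter in controls only. The summed level of the 9 was 1773, 2051 and 3163 in NesCre libraries 1, 2 and 3 and 3624, 2812 and 2621 in control 1, control 2 and the unnumbered control, most of it from Sparc, which microglia also express. Fn1, fibronectin, had 9.68, 5.80 and 20.5 in NesCre libraries 1, 2 and 3, against 73.2, 20.2 and 36.9 in control 1, control 2 and the unnumbered control, a log2 change of -1.75 (95% interval -2.72 to -0.78), with overlap at a single library. Cnn3, a calponin, had 6.49, 4.99 and 2.04 in NesCre libraries 1, 2 and 3, against 23.8, 29.0 and 13.5 in control 1, control 2 and the unnumbered control, a log2 change of -2.10 (95% interval -3.04 to -1.16), without overlap. Ptgds, a prostaglandin synthase of meninges and oligodendrocytes, had 769 normalised reads in control 1 and between 2.04 and 102 in the other 5 libraries.

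Border-associated macrophages, the macrophages of meninges and vessels, share CSF1R with microglia. Of 20 markers 16 were kept and 3 had a positive log2 change, with a median of -0.23 (-0.37 to 0.07). That median was 0.07 without control 1, so its sign rests on that library. The summed level of the 17 in the table was 3772, 3277 and 2665 in NesCre libraries 1, 2 and 3 and 3813, 3759 and 3163 in control 1, control 2 and the unnumbered control, lowest in NesCre library 3. The mannose receptor Mrc1 had 1089, 1039 and 569 normalised reads in NesCre libraries 1, 2 and 3, against 844, 1030.2 and 1039.8 in control 1, control 2 and the unnumbered control, a log2 change of -0.16 (95% interval -0.58 to 0.26). The haptoglobin receptor Cd163 had 27.2, 44.9 and 62.3 in the NesCre libraries and 99.8, 50.6 and 33.6 in the controls, and Lyve1, a hyaluronan receptor, 179, 45.7 and 81.8 in the NesCre libraries and 186, 106 and 55.3 in the controls. Both were highest in control 1. The monocyte chemokine receptor Ccr2 had 4.89, 11.5 and 13.7 in NesCre libraries 1, 2 and 3, against 24.8, 11.3 and 47.8 in control 1, control 2 and the unnumbered control, a log2 change of -1.28 (95% interval -2.29 to -0.28), highest in the unnumbered control, the library with the class II reads. Astrocyte and radial glia markers were kept at 7 of 21, with a median of -0.06 (-0.38 to 0.05). Of the 7, 2 had a positive log2 change, and 5 did without control 1. The summed level of the 11 in the table overlapped, at 518, 418 and 411 in NesCre libraries 1, 2 and 3 and 553, 419 and 540 in control 1, control 2 and the unnumbered control. Slc1a3 had 43.2, 24.5 and 26.3 in NesCre libraries 1, 2 and 3, against 45.7, 69.1 and 94.7 in control 1, control 2 and the unnumbered control, and the gap junction gene Gja1 had 11.3, 4.17 and 6.90 in the NesCre libraries and 44.7, 16.1 and 16.8 in the controls, both without overlap and lower in NesCre. These were the only 2 of the 7 without overlap, and Gja1, like Ccr2, passed the filter in controls only. The part of these cells in the microglial values was not tested. Neuronal, oligodendrocyte, monocyte, neutrophil, lymphocyte, erythroid and choroid plexus lists kept between 0 and 6 members each. Medians were -0.60 (-0.85 to -0.25) for neurons, -0.02 (-0.14 to 0.11) for oligodendrocytes and -0.17 (-0.42 to -0.13) for monocytes. Neutrophils had a median of -0.12 over 2 genes, and the 1 lymphocyte gene kept had -0.47. The 1 choroid plexus gene kept had 1.03 and passed the filter in NesCre only.

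**Figure D4:**
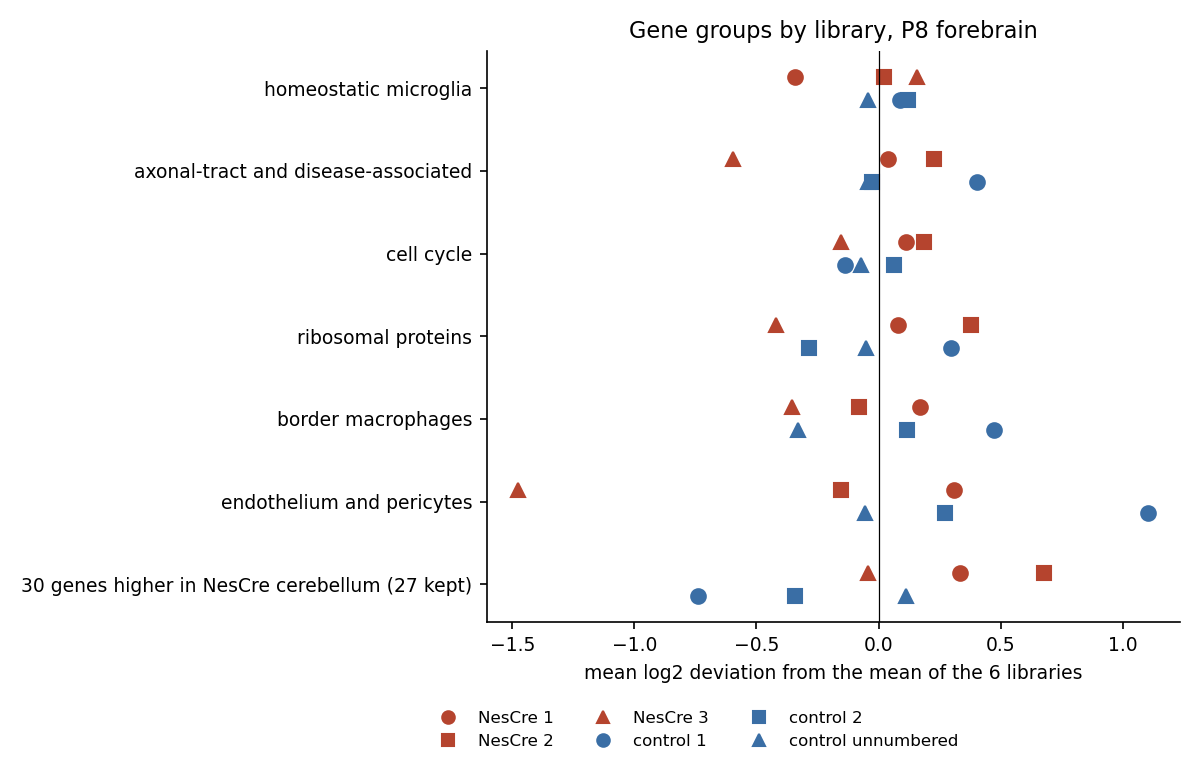
Mean log2 deviation from the mean of the 6 libraries for 6 gene groups and for the genes that were higher in NesCre cerebellum, by library (red NesCre, blue control). NesCre library 3 has the lowest axonal-tract, ribosomal protein, border macrophage and endothelial values, control 1 has the highest axonal-tract, border macrophage and endothelial values, and no group separates the genotypes completely.

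The same genotype comparison in P8 cerebellum made calls, which raises the question of whether the regions differ. In cerebellum 34 of 8539 genes (0.398%) were called, 30 higher and 4 lower in NesCre. The difference of the forebrain and cerebellum effects was tested in a single limma fit over the 8092 genes kept in both regions. None of these genes (0%) passed, with a smallest adjusted p of 0.998 and 360 genes at an unadjusted p under 0.05. Whether forebrain and cerebellum libraries came from the same animals is not given in the labels.

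Spp1 gave one of the smallest p for this difference and the largest size among the genes called in cerebellum. In cerebellum it had 263, 346 and 62.6 normalised reads in NesCre libraries 1, 2 and 3, against 1781, 950.2 and 1379 in controls 1, 2 and 3. Its log2 change there was -2.88 (adjusted p = 0.00461, limma), against 0.29 in forebrain, a difference of 3.17 (SE 0.89, 95% interval 1.35 to 4.99), which did not pass after adjustment. Without forebrain NesCre library 3 the difference was 4.51 (adjusted p = 4.73e-05), and Spp1 was then the 1 gene of 8092 called (0.0124%). The call thus turned on that library. Jam2, a junctional adhesion molecule, was lower in NesCre cerebellum (-1.76) and had 25.6, 45.7 and 39.0 normalised reads in NesCre libraries 1, 2 and 3, against 37.1, 55.5 and 35.3 in control 1, control 2 and the unnumbered control in forebrain, where the groups overlapped. Its difference was 1.55 (SE 0.41). Cd9, a tetraspanin, and Ctsd, cathepsin D, were the other genes lower in cerebellum (-0.95 and -0.63), with -0.19 and -0.18 in forebrain.

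Of the 30 genes higher in NesCre cerebellum, 27 were kept in forebrain. None was called there, and 26 had a positive log2 change (against 48.3% of all genes). Unadjusted p was under 0.05 for 15 (against 4.91% of all genes), and 6 lay above all controls (against 4.99%). Among the 27, Snx20, Ier2, Irf2bpl and Fance passed the forebrain filter in NesCre only, so their direction is partly set by the filter. The median log2 change of the 27 in forebrain was 0.64, against 1.35 in cerebellum, where they were selected for a large change. Psmd3, a subunit of the proteasome, had 79.9, 95.4 and 45.8 normalised reads in NesCre libraries 1, 2 and 3, against 19.1, 31.4 and 67.9 in control 1, control 2 and the unnumbered control, a log2 change of 1.01 (95% interval 0.24 to 1.78). Clptm1 had 95.9, 183 and 78.8 in NesCre libraries 1, 2 and 3, against 31.4, 68.3 and 114 in control 1, control 2 and the unnumbered control, a log2 change of 0.82 (95% interval 0.09 to 1.55). In both, control 1 was the lowest library and the unnumbered control overlapped with the mutants. The mean log2 deviation of the 27 genes was 0.33, 0.68 and -0.04 in NesCre libraries 1, 2 and 3 and -0.74, -0.34 and 0.11 in control 1, control 2 and the unnumbered control. The controls alone thus spanned more than the mutants did, and NesCre library 3 was below the unnumbered control. These genes had a median transcript GC content of 55.7%, against 48.7% over all genes kept. Spearman's rho across genes between GC content and a library's log2 deviation was 0.01, 0.15 and -0.13 in NesCre libraries 1, 2 and 3 and 0.07, -0.06 and -0.03 in control 1, control 2 and the unnumbered control. The part of GC content in these values was not tested. Spi1 and C1qc, both higher in cerebellum (1.38 and 1.39), and Rnf187, a ubiquitin ligase (2.61), had 0.38, 0.38 and 0.45 in forebrain. The scaffold gene Itsn2 was the 1 gene of the 27 with a negative value in forebrain (-0.11).

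**Figure D5:**
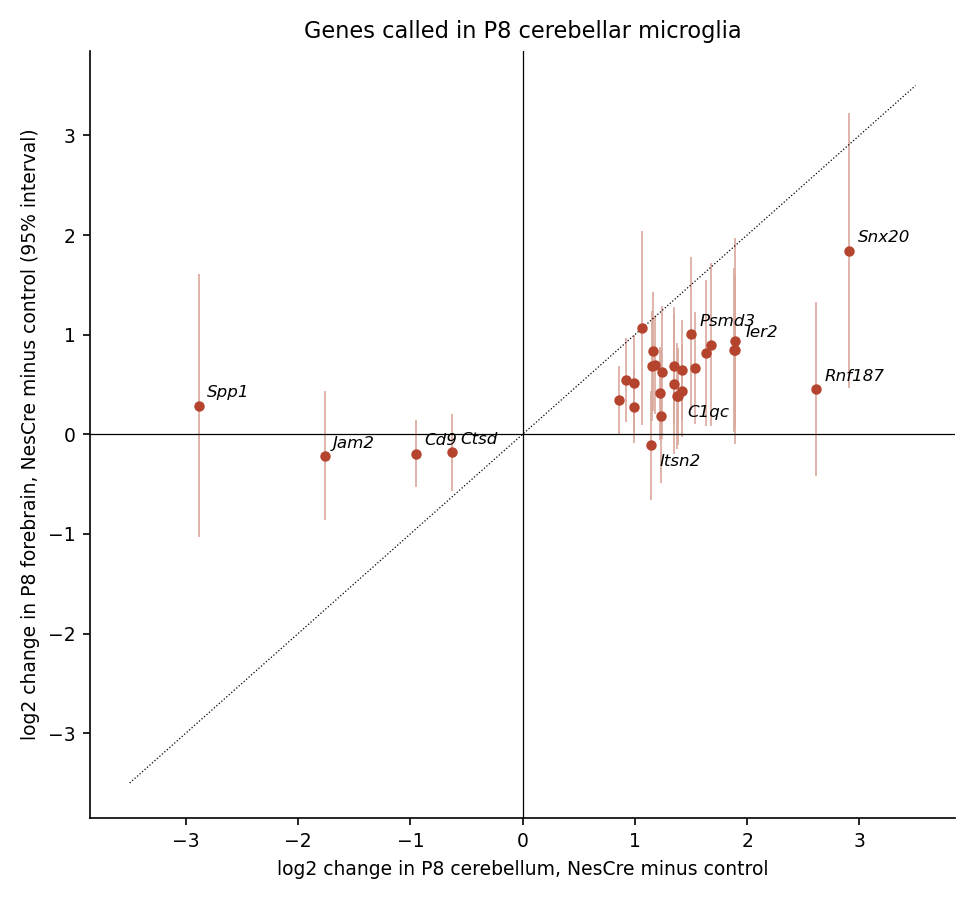
Log2 change (NesCre minus control) in P8 forebrain, with 95% intervals, against that in P8 cerebellum for the 31 genes called in cerebellum and kept in forebrain. The dotted line marks equal changes. Of the 27 genes higher in NesCre cerebellum, 26 are above 0 in forebrain and 26 lie below the line, while Spp1 lies far above it. Snx20, Ier2, Irf2bpl and Fance passed the forebrain filter in NesCre only.

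Other genes with small p for the difference between regions are given as values. Fmr1 was higher in NesCre forebrain and had a log2 change of -0.45 in cerebellum, a difference of 1.38 (SE 0.37). The decapping enzyme Dcp2 had a difference of 1.69 (SE 0.49) and the sphingosine phosphate receptor S1pr4 1.83 (SE 0.54). In forebrain, Dcp2 and S1pr4 passed the filter in NesCre only. On the negative side Rnf187 had -2.16 (SE 0.58), Skp2, a ubiquitin ligase subunit of the cell cycle, -1.68 (SE 0.45), Fn1 -2.93 (SE 0.80), Decr1 -1.63 (SE 0.45) and Itsn2 -1.26 (SE 0.33). Clec7a had a log2 change of -1.15 in cerebellum, with a difference of 0.16 (SE 0.41) and a 95% interval of -0.68 to 1.01. Ccl6 likewise had -0.69 in cerebellum and a difference of 0.05 (SE 0.30), with a 95% interval of -0.56 to 0.67. These intervals hold 0 and leave room for differences of more than 0.5 on the log2 scale.

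The forebrain effect at P8 was also set against that at 9 weeks, when 0 of 9424 genes (0%) were called. No gene of the 8088 kept at both ages (0%) passed for the difference, with a smallest adjusted p of 0.362 and 410 genes at an unadjusted p under 0.05. Rcan1 had the smallest p: its log2 change was -1.37 at P8 and 0.46 at 9 weeks, a difference of -1.83 (SE 0.38). The leukotriene receptor Cysltr1 had 0.63 at P8 and -0.60 at 9 weeks, a difference of 1.24 (SE 0.28). Enpp1, an ectonucleotidase, had -0.92 at P8 and 2.07 at 9 weeks, a difference of -2.99 (SE 0.66). At P8 Enpp1 overlapped between genotypes, with 9.68, 41.6 and 17.6 in the NesCre libraries and 33.3, 38.6 and 41.1 in the controls. Mob3a had a difference of 0.91 (SE 0.25), Maged1 -0.95 (SE 0.24) and Rab34, a small GTPase, -1.70 (SE 0.44). At P8, Rcan1, Enpp1 and Rab34 passed the filter in controls only. Of the genes described above, Clec7a averaged 39.3 ± 14.1 normalised reads in NesCre (SD, n = 4) and 35.4 ± 6.68 in control libraries (SD, n = 3) at 9 weeks, a log2 change of 0.08. Serpine2 had 0.15 at 9 weeks and a difference of -0.60 (SE 0.17), and Ctsb 0.17 and -0.57 (SE 0.19). Csf1r had -0.03 at 9 weeks, and its difference was -0.06 (SE 0.19). Spp1 at 9 weeks was not analysed here.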

How the data were processed

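RNA of microglia sorted by flow cytometry was made into Nextera XT libraries, per the labels' protocols. Tools and build (STAR 2.5.3, featureCounts, mm10) are as the submitters' processing notes list them. The strand setting and the annotation are not given in the sources used here, so genes that overlap on opposite strands are not told apart. The authors deposited a signal per gene: in every library used, 100% of values were whole reads divided by 1 factor per library, plus 0.1 (tolerance 0.01 reads). The tables for P8 forebrain, P8 cerebellum and 9-week forebrain were used, each as deposited. The design's count tests were not run. Some genes that the naming rule chose are not reported here.

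A gene was kept where every one of the 3 libraries of a genotype exceeded 10. The other 1113 genes of the P8 forebrain table would pass if the unnumbered control formed a group of its own. A spreadsheet had turned 16 names into dates. These rows stayed in the fit and were left out of joins. The test was limma-trend (limma 3.58.1, R 4.3.3) on log2(value + 1), two-sided, with no covariate, 95% intervals and Benjamini-Hochberg adjustment over the genes kept. Log2 changes on this scale understate those of low genes. Differences between effects were contrasts in 1 fit over both tables, normalized separately. The fits were tested on simulated data.

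Members and the 34 gene lists were chosen with earlier results of these data known. Lists are described by counts and medians, with 4 members found under older symbols through RefSeq. Named genes were the 12 of smallest p per direction (mean of at least 20, no overlap, no predicted or ribosomal gene), the 15 highest means, the 5 largest differences of means per direction, list members by mean level, genes called in cerebellum or under an alternative, and the 5 smallest p per direction of each difference. Other list members are named where the genotypes did not overlap or where they show how libraries differ, chosen after their values were seen. GENCODE vM21 (GRCm38) held 95.5% of the genes kept. Depth was 503424 to 1049734 reads per P8 forebrain library, at which 10 normalised reads are 6.3 to 12.5 reads. Sequence windows were read from RefSeq promoters. Alternatives were other pseudocounts, filters and scalings, quality weights, leaving out each library and a replicate block.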

Additional observations from a re-analysis of the deposited data

How the results depend on the processing

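No gene was called for the P8 forebrain genotype effect with a pseudocount of 0.1 or 10, all genes of the table, a mean of at least 30, quantile normalization, or, added after seeing the data, median-of-ratios scaling and library quality weights. Leaving out each library in turn gave between 0 and 2 calls, with Spp1 and Zfp27 without NesCre library 3, Coq4 without control 1, Snx20 without the unnumbered control, and none without the others. The same gave 0 to 1 call for the difference from cerebellum (Spp1) and 0 calls for the difference from 9 weeks. Forebrain groups share only the numbers 1 and 2, and nothing says that a number pairs mice: deviations of same-numbered libraries from their group means correlated at 0.03 and -0.02. A replicate block over those libraries leaves out NesCre library 3 and the unnumbered control. With it, 5 genes were called for the genotype effect (Spp1, Psmd3, Clptm1 and Ier2 higher, Nampt lower). It gave 1 call for the difference from cerebellum (Spp1) and 2 for the difference from 9 weeks (Snx20 and Ier2). Ier2 and Snx20 passed the P8 forebrain filter in NesCre only, so their direction is partly set by the filter. The count tests and TMM scaling planned on reads were not run. Of the list medians under alternatives, 397 stayed within the spread between libraries and 18 moved beyond it. A median that stayed within it could still change sign. That of ribosomal proteins was -0.17 without NesCre library 2 and 0.23 without NesCre library 3. That of homeostatic genes was 0.03 without NesCre library 1. Quantile normalization gave positive log2 changes for Lgmn (0.12), Serinc3 (0.05) and C1qb (0.11). The median half-width of the unadjusted 95% interval was 0.63 on the log2 scale, and larger changes were not called either after adjustment over all genes (Coq4, 2.53).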
